A study of Gasterosteus aculeatus with 18 samples.

Results

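Among 16103 genes of threespine stickleback eggs, 234 had a control value that lay between the values at a low and a high dose of cortisol in a fixed order. In 123 genes the low pool was below and the high pool above the control pool, and these are called down-up genes here. In the other 111 the low pool was above and the high pool below the control pool, and these are called up-down genes. Members were chosen by the measured values themselves: within each replicate number the control value had to lie strictly between the low and the high value, in 1 of the 2 orders, in at least 5 of the 6 numbers. Only genes with a mean of at least 11.4 over the 18 pools were considered, which left out 1150 of the 17253 genes in the table. All differences between the 3 groups are therefore part of the choice and are given as descriptions.

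RNA came from wild type stickleback (Gasterosteus aculeatus) egg clutches at 72 hours post fertilization, each sample labelled as a pool of 10. The labels name a control group, a low group and a high group, each with 6 pools numbered 1 to 6, and give maternally derived cortisol as the agent of the low and high groups. The text of the series lists 0, 5 and 10 µg/L, taken here in that order as control, low and high, and calls them baseline, predator induced and above the physiological range. The labels do not say whether pools of 1 number came from 1 clutch, nor that pools came from separate clutches, so p-values measure only the spread between these pools. Each pool is bulk material, so fewer cells of a type and less RNA per cell cannot be told apart.

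Cortisol is the main glucocorticoid of teleost fish, and mothers pass it into their eggs. It acts through the glucocorticoid receptor and the mineralocorticoid receptor, which enter the nucleus with the hormone bound and raise or lower the transcription of target genes. ABC transporters, which the title of the study names, are membrane pumps that can move steroids out of cells. A response that changes direction between a lower and a higher dose is called non-monotonic.

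The genes carry Ensembl identifiers only, and 0 of the 234 were found in the RefSeq gene table used here, so their names, functions and sequences are not given. Lists of transporters, cortisol targets and cell type markers could not be applied for the same reason.

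Both orders with control in the middle held more genes than each of the other 4 orders of the 3 groups. The order low below control below high was found in 0.764% of the 16103 genes and the order high below control below low in 0.689%. With the same requirement of 5 of 6 numbers, control was lowest and high highest in 25 genes (0.155%), and low was lowest and control highest in 23 (0.143%). High was lowest and control highest in 21 genes (0.13%), and control was lowest and low highest in 17 (0.106%). Genes share the 18 libraries and are not independent of each other, so no test was made on these counts. The full order held in 6 of 6 numbers in 13 down-up and 12 up-down genes.

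**Figure D1:**
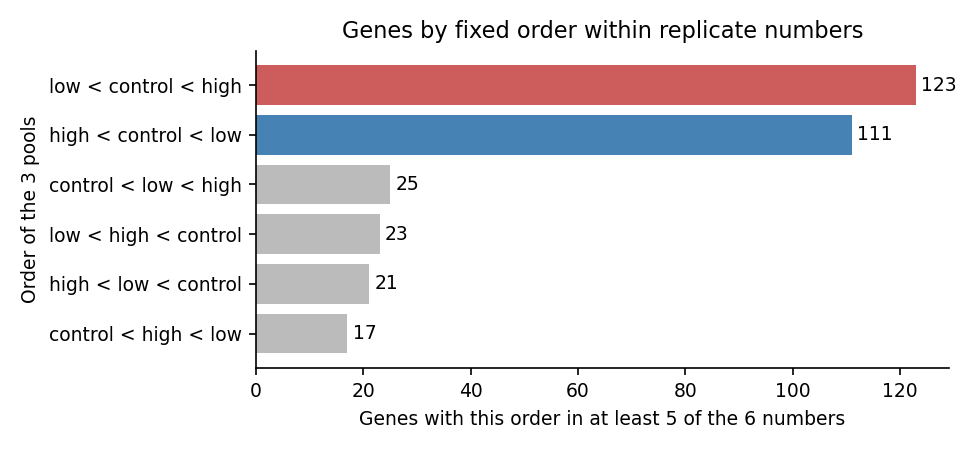
Number of genes (horizontal axis) whose 3 pools of a replicate number follow a given order (vertical axis) in at least 5 of the 6 numbers, out of 16103 genes. The 2 coloured bars, 123 and 111 genes, are the orders with control in the middle, and the 4 grey bars run from 17 to 25.

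The counts depended on how the columns were scaled. With every column rescaled to the same total, 66 genes were down-up, of which 29 were among the 123, and 127 were up-down, of which 41 were among the 111. That scaling also moved the median of all genes, by between -0.22 and 0.21 on the log2 scale for low minus control over the 6 numbers, whereas in the deposited values that median stayed within 0.0044 of 0. The orders with control in the middle were still the most numerous, ahead of 42, 31, 13 and 12 genes in the other 4. Scaling by median ratios kept 119 of the 123 and 102 of the 111 genes, and quantile normalization kept 88 and 87.

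The displacement from control was modest in the low pools and somewhat larger in the high pools. For each number the median over the down-up genes was taken, and over the 6 numbers it averaged -0.17 ± 0.092 (SD, n = 6) on the log2(value + 1) scale in low minus control and 0.25 ± 0.13 in high minus control. For the up-down genes these averages were 0.24 ± 0.12 in low and -0.33 ± 0.21 in high pools. For the same genes with every column rescaled to the same total, the down-up average in low minus control was -0.11, and the other 3 averages were 0.23, 0.31 and -0.35. Over all 16103 genes the averages in the deposited values were 6.5e-05 ± 0.0027 in low and -0.0032 ± 0.011 in high minus control. Rises and falls of single genes cancel in a median over all genes, so these values are no yardstick for the chosen genes. From the low to the high pools the median gene stood 1.37-fold higher among the down-up genes and 1.55-fold lower among the up-down genes.

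The high dose lay farther from control than the low dose in 86 of 123 down-up genes (69.9%) and 84 of 111 up-down genes (75.7%), against 54.0% of all genes tested. On a scale from the low mean (0) to the high mean (1), control stood at a median of 0.42 in down-up and 0.41 in up-down genes. Both shifts exceeded 0.25 on the log2 scale in 25 of 123 down-up and 53 of 111 up-down genes. Of all 16103 genes, 982 had both shifts that large, in any direction. Both exceeded 0.5 in 5 down-up and 6 up-down genes, and in 87 of all genes. The shifts were part of the choice, so nothing is read from these counts. The mean over the 6 numbers had the sign of the order at both doses in all but 1 of the 234 genes. That down-up gene had a mean high minus control difference of -0.025, and in number 5, its number out of order, the high pool was at 50 and the control pool at 84.

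**Figure D2:**
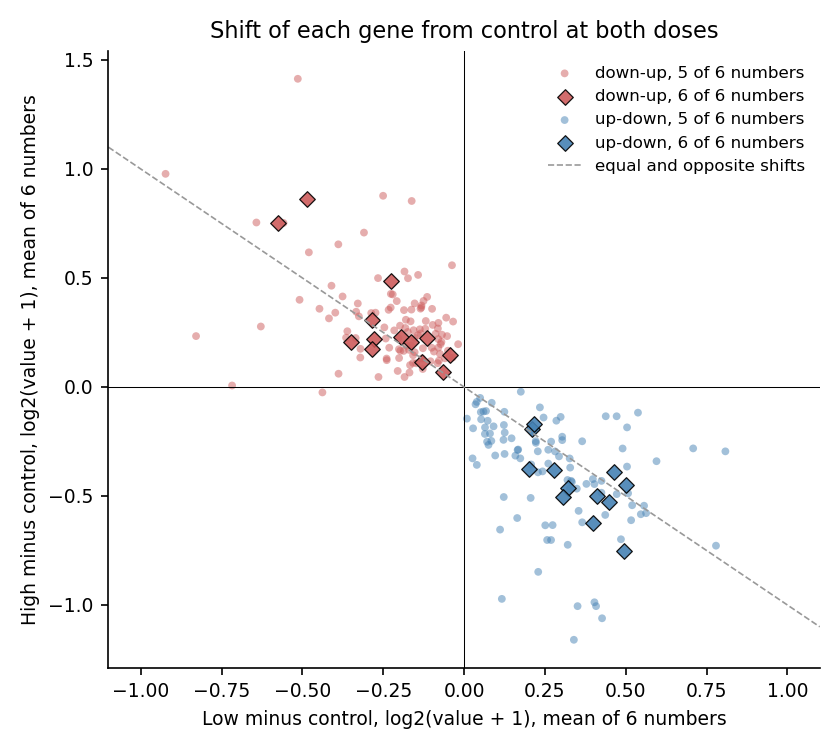
Each point is 1 of the 234 genes, with the mean low minus control difference on the horizontal axis and the mean high minus control difference on the vertical axis, both on the log2(value + 1) scale over 6 numbers. Down-up genes fill the upper left and up-down genes the lower right by the way they were chosen, and diamonds mark the 25 genes in order in 6 of 6 numbers.

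The 6 numbers did not divide this displacement alike between the doses. In numbers 1 and 6 the low pool lay farther from control: the down-up median was -0.27 and -0.29 in low pools against 0.12 and 0.15 in high pools. The up-down genes matched this in mirror image in those numbers, with 0.32 in both low pools against -0.21 and -0.18 in the high pools. In numbers 2 to 5 the high pool lay farther out. Number 5 was the most one-sided, with -0.087 in low and 0.48 in high for down-up genes and 0.15 and -0.63 for up-down genes. In number 3 the up-down genes were displaced most at both doses together, by 0.40 and -0.57.

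Over all genes the median absolute difference from control was 0.17 for the low pool and 0.15 for the high pool of number 1, and 0.16 and 0.16 in number 6. In number 5 it was 0.21 and 0.29, and in number 3 it was 0.23 for both pools. It was 0.26 for both pools in number 2 and 0.17 for both in number 4. As absolute medians, number 2 had 0.17 in low and 0.23 in high pools for down-up genes, and 0.21 and 0.23 for up-down genes. In number 2 the chosen genes thus lay no farther from control than all genes. Number 4 had 0.13 and 0.25 for down-up genes, and 0.17 and 0.24 for up-down genes. The medians of the chosen genes given before these were signed. As absolute medians, number 5 had 0.16 and 0.48 for down-up genes, and 0.20 and 0.63 for up-down genes. In number 5 the high pool thus lay farther out in all genes too, by a smaller gap. The low values of the chosen genes there were below that of all genes. The high pool of number 3 also had 1220 genes with a normalised read count of at most 5. The other libraries had between 358 and 802 such genes. Without number 3 the average high minus control difference was 0.24 for down-up genes, and for up-down genes it was -0.29 in place of -0.33.

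**Figure D3:**
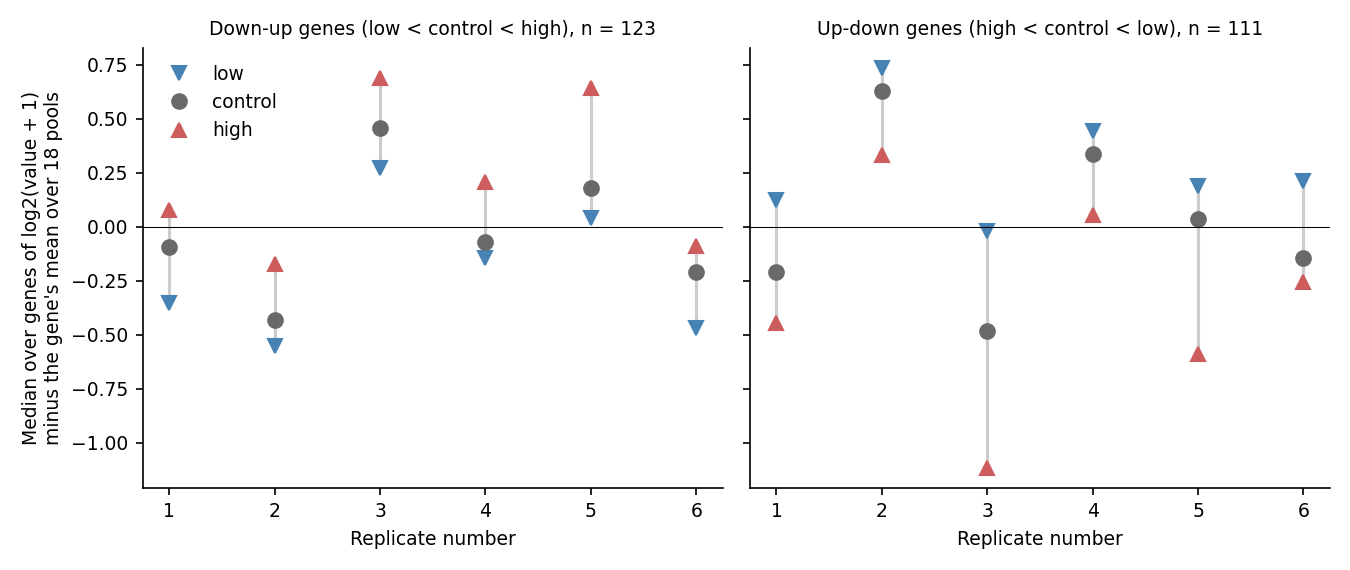
For each pool, the median over the down-up genes (left) or up-down genes (right) of log2(value + 1) minus each gene's mean over 18 pools, by replicate number on the horizontal axis. Control lies between low and high in each number by the way the genes were chosen, while the level differs between numbers, with number 3 highest for down-up genes and number 2 highest for up-down genes.

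Most exceptions fell in numbers 2, 4 and 5. Of the 110 down-up genes with 1 number out of order, 28, 29 and 27 had it in those numbers, against 7, 9 and 10 in numbers 1, 3 and 6. Of the 99 such up-down genes, 35, 32 and 16 had it there, against 4, 8 and 4. In 85 of the 110 and 75 of the 99 cases the high and the low pool still differed in the direction of the order, and only control was out of place. Over all cases, whichever way high and low differed, control was below both treated pools in 76 of the 110 down-up cases. It was above both in 67 of the 99 up-down cases. It tied with a treated pool in 2 and 4 cases.

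Many single steps were small beside counting error. A step smaller than the square root of the control value is roughly within 1 counting SD of a single read count of that size. A difference between counts has a larger counting SD, and the values were rescaled, so the shares that follow are only rough. In down-up genes 154 of 628 steps from control to low in the right order (24.5%) and 118 of 628 from control to high (18.8%) were that small. In up-down genes it was 105 of 567 steps to low (18.5%) and 142 of 567 to high (25.0%). Requiring control to stand at least 0.1 on the log2 scale from both treated pools left 14 down-up and 27 up-down genes.

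Genes just outside the choice had smaller shifts. The same differences decided in how many numbers a gene was in order, so nothing is read from this. The 439 genes with the down-up order in exactly 4 numbers had a median low minus control difference of -0.12 and a high minus control difference of 0.17, against -0.18 and 0.26 in the 110 genes with exactly 5. The 421 genes with the up-down order in 4 numbers had 0.15 and -0.24, against 0.26 and -0.32 in the 99 with 5. At the floor, the member with the lowest mean was an up-down gene at 11.9, and 3 genes with one of the orders lay under the floor, at means of at most 9.83.

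The down-up genes were more abundant than most. Their median mean value was 354.5, with quartiles at 175 and 646, against a median of 177 over all genes tested. Only 6 of 123 (4.88%) had a mean under 50, compared with 20.8% of all genes. The up-down genes had a median of 188 and spread more widely, with 17 of 111 (15.3%) under 50 and 21 (18.9%) at 1000 or over, where 11.1% of all genes lay. None of the 234 was among the 100 most abundant of the 16103 genes tested, a share at which few of 234 would be there. The rule asks for strict differences between values rounded to whole numbers, where ties are likelier at low values. With ties with control allowed, 149 genes had the down-up and 143 the up-down order. The part of ties in these abundances was not tested.

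What the choice did not use is how a gene differs from one number to the next. Here the 2 orders formed mirror images in numbers 2 and 3, but not in every number. Deviations here are from each gene's mean over the 6 control pools, on the log2(value + 1) scale. The median deviation of control pool 1 was negative in both, at -0.071 in down-up and -0.26 in up-down genes. That of control pool 6 was also negative in both, at -0.195 and -0.14. In the control pools alone, 76 of 123 down-up genes (61.8%) had their highest value in number 3, against 19.1% of all genes tested. In 66 of them (53.7%) the lowest control value was in number 2, against 17.5% of all genes. Among the up-down genes, 62 of 111 (55.9%) had their highest control value in number 2, against 16.5% of all genes. In 52 of them (46.8%) the lowest was in number 3, against 18.2%. Both extremes together fell on these numbers in 41 down-up genes (33.3%) and 24 up-down genes (21.6%), compared with 3.29% and 3.65% of all genes.

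The same numbers stood out in the treated pools. In the low pools 64 down-up genes (52.0%) were highest in number 3 and 59 up-down genes (53.2%) in number 2, against 14.8% and 12.9% of all genes. In the high pools these counts were 65 (52.8%) and 64 (57.7%), against 17.7% and 15.1%. Genes within an order share libraries and vary together, so these shares describe 6 numbers and carry no test.

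From the lowest to the highest control pool, the levels of the chosen genes spanned more than the average difference between doses. A range and an average are unlike measures. The SD of these levels over the 6 control pools was 0.31 for down-up and 0.40 for up-down genes, smaller than that difference. The median deviation of the down-up genes ran from -0.43 in control pool 2 to 0.46 in control pool 3, a range of 0.89 on the log2 scale, while high minus low within a number averaged 0.44 ± 0.064 (SD, n = 6). For the up-down genes the control pools ran from -0.48 in number 3 to 0.63 in number 2, a range of 1.11, and high minus low averaged -0.595 ± 0.27. Over all genes the control pools spanned 0.020, but rises and falls of single genes cancel in that median. It is therefore no yardstick for the chosen genes. Per gene, the SD over the 6 control pools had a median of 0.42 in down-up genes, 0.63 in up-down genes and 0.42 in all genes.

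Of the down-up genes in order in all 6 numbers, ENSGACG00000007691 was displaced most on its weaker side. Its normalised read counts in control pools 1 to 6 were 168, 95, 675, 287, 321 and 148. In the low pools they were 71, 81, 589, 207, 276 and 68, and in the high pools 248, 185, 918, 521, 785 and 197. Every high pool was above and every low pool below its own control, but the 3 groups overlapped widely. Pool 3 was many times higher than pools 1, 2 and 6 in control and in low. Without pool 3 the groups still overlapped, at 95 to 321 in control, 68 to 276 in low and 185 to 785 in high. The control mean was 282 ± 211 (SD, n = 6), the low mean 215 ± 202 and the high mean 476 ± 319. The high level was 1.68-fold and the low level 0.671-fold that of control, on the log2(value + 1) scale.

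ENSGACG00000018997 followed it, at lower counts. Its control pools 1 to 6 had 30, 24, 142, 27, 53 and 34, its low pools 15, 19, 111, 26, 39 and 19, and its high pools 32, 52, 196, 96, 138 and 45. Pool 3 was the highest in each group. Some steps were very narrow, such as control at 27 against low at 26 in number 4 and high at 32 against control at 30 in number 1. The control pools averaged 51.7 ± 45.4, the low pools 38.2 ± 36.7 and the high pools 93.2 ± 63.8 (SD, n = 6).

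Among the 12 up-down genes in order in 6 of 6 numbers, ENSGACG00000009622 had the largest displacement on its weaker side. Control pools 1 to 6 had 2765, 3196, 689, 2239, 3266 and 2899. Low pools had 4182, 3704, 1231, 2803, 4055 and 4643, and high pools 2449, 1871, 251, 1773, 984 and 2792. Here number 3 was the lowest in every group, the mirror image of the 2 down-up genes. The control pools averaged 2509 ± 964, the low pools 3436 ± 1243 and the high pools 1687 ± 938 (SD, n = 6). On the log2(value + 1) scale the low level was 1.41-fold and the high level 0.593-fold that of control.

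ENSGACG00000015796 had 70, 284, 92, 209, 119 and 69 in control pools 1 to 6, 117, 302, 146, 238, 156 and 108 in low pools and 66, 235, 54, 145, 46 and 61 in high pools. In each group number 2 was the highest and number 4 the second. In numbers 1 and 6 the high pools, at 66 and 61, were close to control, at 70 and 69, while the low pools were at 117 and 108. Low pools averaged 178 ± 76.3 and high pools 101 ± 74.8, against 141 ± 87.4 in control pools (SD, n = 6).

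The most abundant down-up gene averaged 7348 ± 2182 in control pools, 6710 ± 2264 in low pools and 7918 ± 2406 in high pools (SD, n = 6), so its groups overlapped almost fully. It was out of order in number 4, where control, at 7782, was above both low (7701) and high (7295). The next most abundant down-up gene had a control mean of 6748 ± 1758, a low mean of 6098 ± 2140 and a high mean of 8348 ± 3034, and was also out of order in number 4. In number 5 its high pool, at 11949, stood well above control (7621) and low (7612).

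The most abundant up-down gene averaged 15606 ± 9804 in control, 17153 ± 5490 in low pools and 9787 ± 5873 in high pools (SD, n = 6). In number 2 its control pool, at 34210, exceeded the low pool, at 23485, and in the other 5 numbers control was in the middle. The next was nearly level at 13457 ± 1427 in control and 13695 ± 1161 in low pools, and averaged 11932 ± 2369 in high pools. Its mean low minus control difference was 0.028 on the log2 scale, where those of the up-down genes ran from 0.0088 to 0.81.

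**Figure D4:**
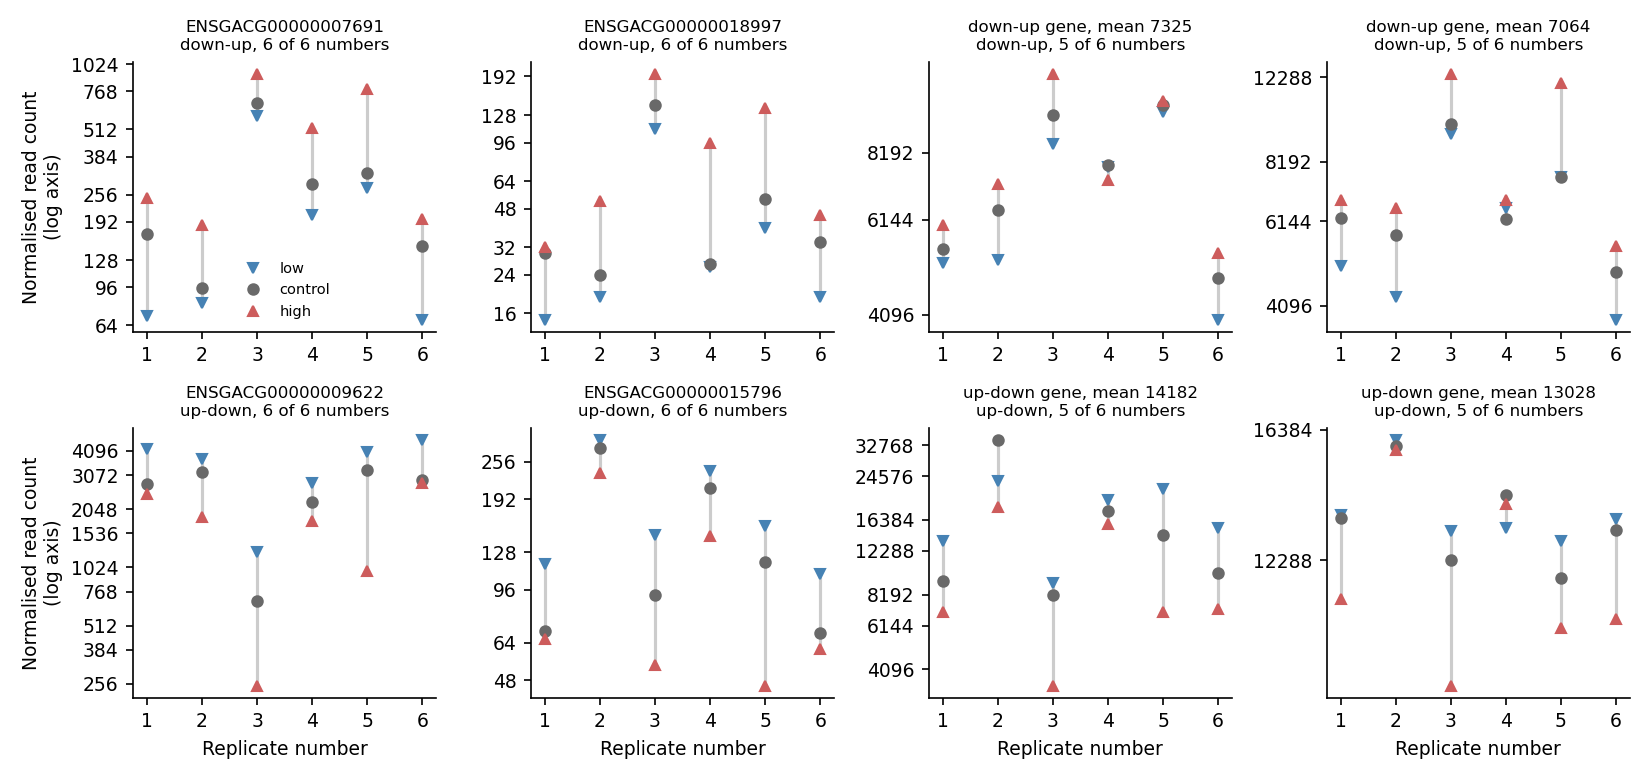
Normalised read counts on a log axis in each pool, by replicate number, for the 4 down-up genes (top) and the 4 up-down genes (bottom) described in the text, with triangles pointing down for low, circles for control and triangles pointing up for high. Among control pools, number 3 is the highest in 3 of the 4 panels of the top row and number 2 is the highest in 3 of the 4 panels of the bottom row.

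The test across all genes called no member without a replicate block. In limma on log2(value + 1), with Benjamini-Hochberg adjustment over 16103 genes, 0 of 123 down-up and 0 of 111 up-down genes passed an adjusted p of 0.05 in high against low, high against control or low against control, where 0% of all genes were called. At an unadjusted p under 0.05, 35 down-up genes were higher and 38 up-down genes lower in high than in low pools, beside 1.11% and 1.28% of all genes. The order of high and low was part of the choice, so nothing is read from these counts. The median standard error of a fold change in that fit was 0.25 for down-up and 0.37 for up-down genes, as large as their median shifts from control or larger.

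With the replicate number as a block the picture differed, since the differences between numbers no longer entered the error. The median standard error was then 0.090 and 0.12. High against low called 103 of 123 down-up genes higher, where 4.35% of all genes were, and 90 of 111 up-down genes lower, where 3.73% were. Because the order of high and low chose the members, nothing is read from these shares. High against control called 19 down-up genes higher and 8 up-down genes lower, beside 0.727% and 0.441% of all genes, and each of these was also called between high and low. Leaving out numbers 1 to 6 in turn changed the 19 to 12, 8, 2, 5, 4 and 5, and the 8 to 3, 10, 0, 5, 1 and 0. The shares of all genes in these 6 fits ran from 0.0869% to 0.404% higher and from 0.0248% to 0.453% lower.

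Low against control called 0 members in either order with the block as well, out of 0% of all genes, with a smallest limma adjusted p of 0.144 among down-up and 0.106 among up-down genes. At an unadjusted p under 0.05 there were 57 down-up genes lower and 51 up-down genes higher in low pools, beside 6.41% and 4.66% of all genes, with the sign again fixed by the choice. Without number 5 the blocked fit called 14 down-up genes lower and 5 up-down genes higher in low than in control pools, where 1.81% and 0.497% of all genes were called. Low against control thus gave no called member in the fits to all 18 pools.

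The genes described singly were chosen by the same differences within numbers that the blocked fit tests. Their adjusted p-values are therefore descriptions and no support for the orders. For ENSGACG00000007691 the blocked limma fit gave 1.33 ± 0.14 (SE) in high against low (adjusted p = 0.00022, 0.00015 to 0.0020 over 9 blocked fits that left out 1 number or added a covariate or neither). High against control was 0.75 ± 0.14 (adjusted p = 0.0177, range 0.0125 to 0.069) and low against control -0.58 ± 0.14 (adjusted p = 0.144, range 0.0314 to 0.697). ENSGACG00000018997 was called in high against low at 1.35 ± 0.18 (limma adjusted p = 0.00053, range 0.00053 to 0.0101) and in high against control at 0.86 ± 0.18 (adjusted p = 0.0287, range 0.0213 to 0.114).

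ENSGACG00000009622 was called in high against low only, at -1.25 ± 0.19 (limma adjusted p = 0.00084, range 0.00084 to 0.0217). Its high against control difference of -0.75 ± 0.19 had an adjusted p of 0.0566 in limma (range 0.0365 to 0.181). ENSGACG00000015796 was called in high against low at -0.98 ± 0.15 (limma adjusted p = 0.00091, range 0.00071 to 0.0465). It was not called in high against control (limma adjusted p = 0.0907, range 0.0655 to 0.322). Nor was it called in low against control (limma adjusted p = 0.272, range 0.0742 to 0.714). Of the 4 abundant genes, the second down-up gene and the first up-down gene were called in high against low, at 0.45 ± 0.087 and -0.96 ± 0.16 (limma adjusted p = 0.0042 and 0.0012, ranges 0.0037 to 0.130 and 0.00050 to 0.0626), and the other 2 were not (0.0515 and 0.111, ranges 0.0309 to 0.426 and 0.0773 to 0.705). Of these 4, only the first up-down gene was called in high against control, at -0.70 ± 0.16 (limma adjusted p = 0.0341, range 0.0212 to 0.159). Without the block the adjusted p of each of the 8 genes was at least 0.9999 in all 3 comparisons of the fit to 18 pools.

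The order was also read in each number after a choice from the other 5 alone. Genes in the down-up order in all 5 of the other numbers were taken, and the number left out was then examined. They numbered 20, 41, 22, 42, 40 and 23 with numbers 1 to 6 left out. In the number left out, 65.0%, 31.7%, 59.1%, 31.0%, 32.5% and 56.5% of them had the same order, against 13.4% to 21.5% of all genes in those numbers. Genes in the up-down order in the 5 others numbered 16, 47, 20, 44, 28 and 16. Of these 75.0%, 25.5%, 60.0%, 27.3%, 42.9% and 75.0% kept the order, against 15.0% to 21.8% of all genes. The numerator is the same 13 or 12 genes each time, so the 6 shares overlap in their genes and no p is given. All genes chosen this way are members, and those out of order are the exceptions counted by number above. These shares therefore restate those exceptions and are no separate support for the orders.

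The direction between high and low is part of the full order, so its share cannot be the smaller one. In the number left out the high pool was above the low pool in 78.0% to 100% of the chosen down-up genes, against 47.3% to 49.6% of all genes. It was below in 70.5% to 100% of the up-down genes, against 48.6% to 50.7%. These shares likewise restate the genes in order in 6 of 6 numbers and the exceptions counted above. They are no separate support for the orders. In numbers 2, 4 and 5 the median low minus control difference of the chosen down-up genes was 0.0077, 0.054 and 0.097, on the far side of 0, and that of the up-down genes was -0.012, -0.064 and -0.066. In numbers 1, 3 and 6 it had the sign of the order in both sets, at -0.27, -0.14 and -0.25 for down-up and 0.53, 0.38 and 0.37 for up-down genes.

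**Figure D5:**
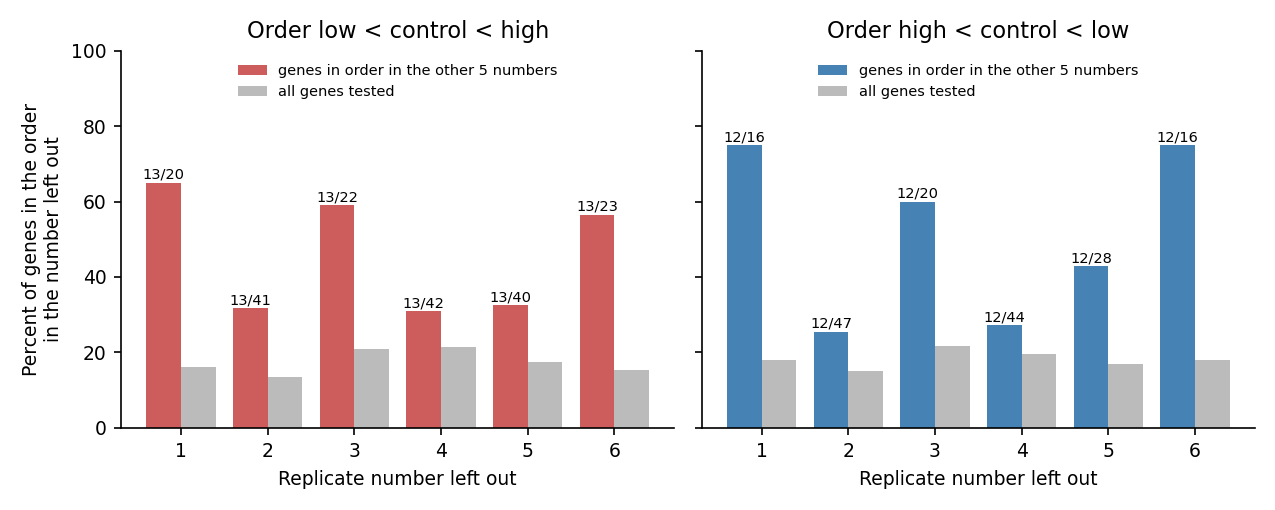
Percent of genes (vertical axis) in the order low below control below high (left) or high below control below low (right) in the replicate number left out (horizontal axis), for genes with that order in the 5 other numbers (coloured, with counts) and all 16103 genes (grey). The coloured bars are above the grey ones in all 6 numbers, from 25.5% to 75.0%, and are higher in numbers 1, 3 and 6 than in the others.

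Some properties of the libraries differed between high and low libraries as well. Column totals ran from 8.36 to 15.2 M, and the reads behind them were estimated at 9.66 to 12.4 M per library. The totals were higher in high than in low libraries in 6 of 6 numbers and higher in low than in control libraries in 1, and followed the order low below control below high in 2. The estimated reads, unlike the totals, were higher in high than in low libraries in only 1 number. They followed the order high below control below low in 1 number and the reverse in 0. They were higher in low than in control libraries in each of the 6 numbers, though in number 1 only at 10.33 against 10.31 M. The scan behind these estimates was clear in 14 of 18 columns, so single comparisons are uncertain. Genes with a normalised read count of at most 5 numbered 652 ± 310 in high, 458 ± 94.0 in low and 532 ± 109 in control libraries (SD, n = 6). They were more numerous in high than in low in each number, and followed the full order in 1. The share of the total in the 100 most abundant genes was likewise larger in high than in low libraries in every number and followed the full order in 2. With the block and this number of low genes as a covariate, high against low called 28 down-up and 17 up-down genes in place of 103 and 90, and 0.491% and 0.242% of all genes in place of 4.35% and 3.73%. The median fold of the members in that fit was 0.38 in place of 0.45 for down-up and -0.44 in place of -0.63 for up-down genes, and their median standard errors were 0.11 and 0.13. ENSGACG00000007691 stood at 1.40 in place of 1.33, while ENSGACG00000009622 stood at -0.74 in place of -1.25. With the column total as the covariate 86 and 71 members were called, beside 2.56% and 1.83% of all genes, and the median folds were 0.42 and -0.54. There high against control called 28 and 23 members in place of 19 and 8, beside 1.54% and 1.19% of all genes. With the number of low genes as the covariate it called 4 and 0, beside 0.174% and 0.0683% of all genes. The part of the estimated reads and of the share in the 100 most abundant genes was not tested.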

How the data were processed

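Messenger RNA was measured in 18 egg pools, 6 in each of 3 groups. The authors deposited 1 table of normalized counts that had been scaled between samples and rounded to whole numbers, read here as scores, since the file name calls them normalized counts and their column medians are nearly equal. Per the submitters' processing notes the tools included TopHat2 2.0.8, Bowtie2 2.1.0, HTSeq, edgeR, Cufflinks 2.2.0, Cuffdiff and FastQC, with no step named. How the values were scaled, and on which genome build, is not given in the sources used here. No count test was run on the rounded values. A scan for the factor that leaves gaps or pile-ups among values under 300 was clear in 14 of 18 columns, and estimated reads are totals divided by that factor.

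Genes with a mean under 11.4 (the mean column total in M) were left out, and orders were counted on the deposited values. limma 3.58.1 (R 4.3.3) was fitted to log2(value + 1) of all 18 pools with a variance trend, and its fold changes understate those of low genes. Python 3.11.15 was used for the rest, and the procedures were tested on simulated data. After removal of group means, same-numbered libraries correlated at r = 0.67 to 0.90 across genes, and each of the 18 had its best correlation with a library of the same number. Every pair was over 0.1, so the numbers count as a pairing, which comes from the data and not from the labels. No 2 libraries shared over 2.39% of values. The members, tests and gene lists were chosen with earlier results of these data known. Genes are named by rule: of each order, the 2 in order in 6 of 6 numbers with the largest shift on their weaker side, and the 2 with the highest mean.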

Additional observations from a re-analysis of the deposited data

Results flagged for a closer look

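Dixon's ratio set 1 pool apart from the rest of its group in 4 of 34 groups of 6 values, taken from the 8 genes described singly and the medians of each order. Chance does so in about 1 in 20 groups. ENSGACG00000018997 stood at 142 in control pool 3, against 24 to 53 in the other control pools, and at 111 in low pool 3, against 15 to 39. The most abundant up-down gene stood at 34210 in control pool 2, against 8124 to 17780. The next most abundant up-down gene stood at 16000 in low pool 2, against 12809 to 13572. None of the medians over the down-up or up-down genes was set apart in this way.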

How the results depend on the processing

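The counts of 123 down-up and 111 up-down genes became 13 and 12 with the order in 6 of 6 numbers, 562 and 532 with 4 of 6, and 14 and 27 with control at least 0.1 (log2) from both. Down-up genes were 66 with equal column totals. Without single numbers the counts ran from 20 to 340 and from 16 to 373, the lower ends with all 5 other numbers required and the upper ends with 4 of them. Ties, other scalings and floors left both counts within 1.5 times. The median shifts and the shares in the number left out moved by less than their SD over numbers under every alternative run. The replicate block raised the 0 calls of high against low to 103 down-up and 90 up-down genes, and those of high against control to 19 and 8. With the column total as a covariate these were 86, 71, 28 and 23, and with the number of genes at 5 or less 28, 17, 4 and 0. Of all genes, high against control then called 1.54% higher and 1.19% lower with the first covariate, and 0.174% and 0.0683% with the second. In the blocked fit without single numbers, high against low called 72 to 101 and 68 to 88, high against control 2 to 12 and 0 to 10, and low against control 14 and 5 without number 5 and 0 otherwise. The shares of all genes called in high against low moved as well, from 1.77% to 4.54% higher and from 1.37% to 4.22% lower. Fits without the block called 0 throughout. Of the 8 genes described singly, the second most abundant up-down gene changed sign in low against control, to -0.0035 with the second covariate. Of the single steps in the right order, 18.5% to 25.0% were below the square root of the control value, a rough measure on rescaled values. The part of depth in this was not tested.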
